A study of Homo sapiens with 15 samples.

Results

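TSC22D3, SGK1, PER1, ZBTB16 and KLF9 are genes that steroid hormones induce in many tissues and that are targets of glucocorticoids and androgens alike. Their promoters were examined in HiChIP maps of the prostate cancer cell line LNCaP. Each gene was given the loops that had a 1 kb anchor within 2500 bp of its canonical start (Gencode, hg19). This gave 131 of the 505995 loops of the series, namely 9 for TSC22D3, 28 for PER1, 32 for ZBTB16, 62 for KLF9 and 0 for SGK1. Canonical starts of 3610 of 19869 protein-coding genes (18.2%) likewise had no loop.

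HiChIP joins DNA ends that lie close together in fixed nuclei and then pulls down fragments carrying a chosen histone mark, here H3K27ac, found at active enhancers and promoters, or H3K4me3, found at active promoters. LNCaP is an established luminal prostate cancer line that responds to androgen. All cells were kept for 3 days in hormone-depleted (charcoal-stripped) serum before 10 nM dihydrotestosterone (DHT) was added and cells were fixed after 30 m or after 4, 16 or 72 h, and the 0 m cells received ethanol. Titles list 2 replicates per time point for H3K27ac and 1 for H3K4me3, 15 samples in all, but 1 contact value per loop, mark and time point was deposited. Replicate error therefore cannot be given and no p-value was computed. In each mark the 4 comparisons share the 0 m table.

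Receptors of the glucocorticoid receptor's subfamily are transcription factors that bind a common palindromic DNA element once a steroid is bound, so that a gene near such an element can answer to more than 1 hormone. TSC22D3 encodes GILZ, a leucine zipper protein that mediates anti-inflammatory actions of glucocorticoids. SGK1 is a kinase that promotes sodium uptake and cell survival, and PER1 is a repressor of the circadian clock. ZBTB16 (PLZF) is a zinc finger repressor of stem and germ cells, and KLF9 is a Krüppel-like factor that restrains proliferation. Loops bring such promoters near distal elements.

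The common element, spelled GNACANNNTGTNC, was searched in the GRCh37 sequence. It reads the same on both strands and no other motif was searched. It occurred in 6.12% of the 19869 promoter windows of 5 kb and in 6.51% of the 210061 5 kb bins that held an anchor. It was present in the window of PER1 and, for SGK1 and TSC22D3, in the window of a second start inside the gene that is described below. The windows of ZBTB16, KLF9 and the canonical starts of TSC22D3 and SGK1 had no match. The 5 kb bins at the far ends of the 5 strongest loops held further matches for ZBTB16, KLF9 and the downstream starts of SGK1 and TSC22D3. The second strongest loop of the canonical TSC22D3 start, which joins its 2 starts, ended in the bin with the match at the downstream start. These sequences are shown because they lie in the 5 kb bins of loops whose contact is reported, with the 13 matched bases in capitals and all on the plus strand. The matches of PER1 and SGK1 lie within the 1 kb anchors, and those of TSC22D3, ZBTB16 and KLF9 lie outside them in the rest of the bin.
PER1, chr17:8057759-8057811, intron, 2.06 kb upstream of the start: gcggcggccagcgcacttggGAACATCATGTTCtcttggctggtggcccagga
SGK1, chr6:134497143-134497195, intron, 1.17 kb upstream of the downstream start: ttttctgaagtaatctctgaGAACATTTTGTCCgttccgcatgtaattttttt
SGK1, chr6:135142259-135142311, intergenic, in the bin of the loop of 645 kb from the downstream start: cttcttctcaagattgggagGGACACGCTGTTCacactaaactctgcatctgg
TSC22D3, chrX:106959309-106959337, untranslated exon, 1.04 kb past the downstream start: agagttccGGACAGTTTGTCCccagatcc
TSC22D3, chrX:106943557-106943609, intergenic, in the bin of the loop of 15 kb from the downstream start: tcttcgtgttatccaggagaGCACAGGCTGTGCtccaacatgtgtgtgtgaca
ZBTB16, chr11:114030907-114030959, intron, in the bin of the loop of 100 kb: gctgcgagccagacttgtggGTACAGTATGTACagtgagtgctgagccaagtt
ZBTB16, chr11:114033719-114033771, intron, in the same bin: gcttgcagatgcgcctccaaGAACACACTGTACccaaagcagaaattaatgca
ZBTB16, chr11:114034820-114034872, intron, in the same bin: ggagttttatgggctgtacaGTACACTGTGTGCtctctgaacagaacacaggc
ZBTB16, chr11:114050207-114050259, intron, in the bin of the loop of 120 kb: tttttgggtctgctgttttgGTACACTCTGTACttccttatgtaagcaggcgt
KLF9, chr9:73095804-73095856, intergenic, in the bin of the upstream loop of 70 kb: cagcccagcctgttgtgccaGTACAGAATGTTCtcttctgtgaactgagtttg
A match is a stretch of letters and was not tied to receptor binding here. Over all partners, 7 of 31 bins for ZBTB16, 8 of 61 for KLF9, 3 of 9 for the canonical and 3 of 23 for the downstream start of TSC22D3, 2 of 26 for the downstream start of SGK1 and 0 of 28 for PER1 held the element.

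Contact is the number of read pairs that join the 2 anchors of a loop, scaled by the authors across the time points of a mark. The deposited values were whole multiples of 1 read pair, which was worth 0.180 to 0.294 in the H3K27ac tables and 0.0792 to 0.342 in the H3K4me3 tables. Read pairs within loops numbered 2475168 to 4308555 per H3K27ac table and 2153262 to 10675614 per H3K4me3 table, the deepest being H3K4me3 at 4 h. All intervals are 95% exact intervals on read pairs and cover counting error only. Contacts were scaled within each mark, so levels are compared only within a mark. The luminal markers KLK2, KLK3, TMPRSS2, HOXB13 and FOLH1 all had loops at their promoters (7 to 59), whereas the basal markers TP63, KRT5 and KRT14 had 0. Of the leukocyte and stromal markers PTPRC and DES had 0, CD3E had 5 and COL1A1 had 17.

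At a change of 1.5-fold or more in mean contact from 0 m, few promoters of the 5 genes were called. The 4 with loops had at least 20 read pairs in every comparison. For H3K27ac, 0 of 4 were higher at 30 m, where 18.7% of all promoters tested were higher, and 0 of 4 were lower (4.94% of all). At 4 h 1 of 4 was higher, ZBTB16 (5.85% of all), and 0 were lower (2.13%). At 16 h 0 were higher (17.7%) and 1 of 4 was lower, TSC22D3 (10.8%), and at 72 h 0 were higher (17.4%) and 1 of 4, again TSC22D3, was lower (8.09%). For H3K4me3 none of the 4 was higher or lower at 30 m (1.94% and 3.1% of all), at 4 h (15.8% and 3.88%) or at 16 h (5.87% and 1.39%). At 72 h 1 of 4 was higher, TSC22D3 (3.51%), on 15 and 25 read pairs with an interval that included 0, and 0 were lower (6.83%). PER1 (0.57) and TSC22D3 (-0.58) in H3K27ac at 30 m lay just inside the threshold of 0.58 on the log2 scale. With 4 promoters, these counts cannot be set apart from the background.

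**Figure D1:**
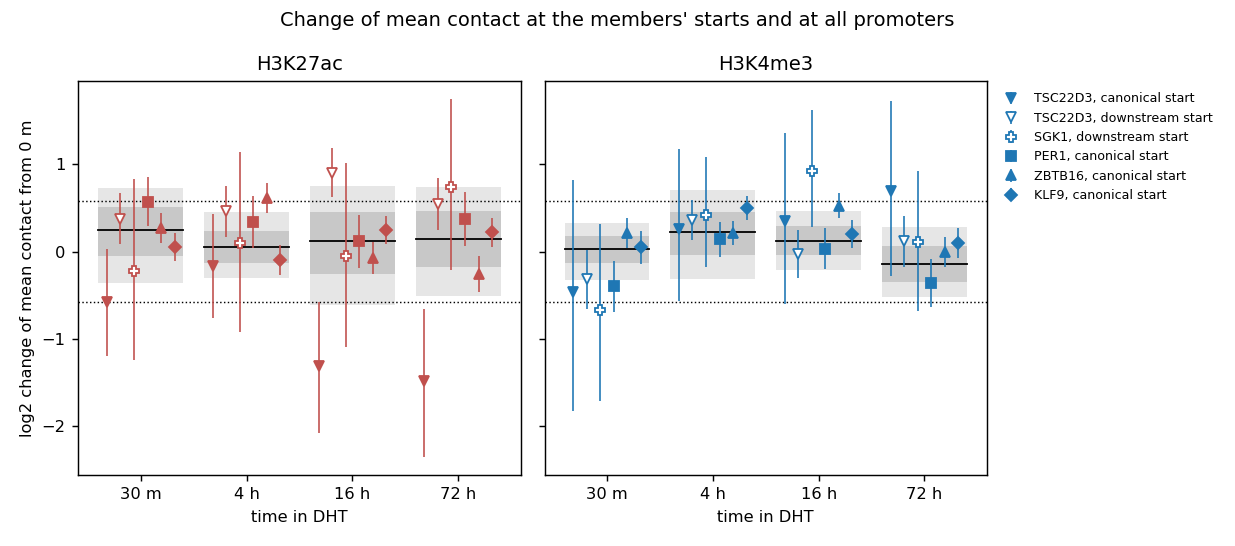
Log2 change of mean contact from 0 m (vertical axis) by time in DHT for the members' starts, with 95% counting intervals. Grey boxes span the 10th to 90th (light) and 25th to 75th (dark) percentiles of all promoters tested, black lines are their medians, open symbols are the downstream starts and dotted lines mark 1.5-fold. For H3K27ac the canonical start of TSC22D3 lay at -1.32 at 16 h and -1.48 at 72 h, below the light box, and its downstream start at 0.91 at 16 h, above it.

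Contacts of all promoters shifted between tables. The median log2 change over all promoters tested in H3K27ac was 0.25 (30 m), 0.05 (4 h), 0.12 (16 h) and 0.15 (72 h), and in H3K4me3 it was 0.03, 0.22, 0.12 and -0.15. Scaling the read pairs to equal totals in place of TMM moved every H3K27ac change by -0.09, -0.07, -0.25 and -0.17 at these times and every H3K4me3 change by -0.02, -0.22, -0.14 and 0.13. With equal totals the shares of all promoters higher and lower by 1.5-fold in H3K27ac were 12.6% and 6.62% (30 m), 4.31% and 2.88% (4 h), 7.75% and 20.7% (16 h) and 9.29% and 13.4% (72 h). In H3K4me3 they were 1.69% and 3.41%, 7.14% and 8.46%, 3.41% and 2.6%, and 5.34% and 2.96%. The shift was not the same at all distances. Over all 52660 loops under 20 kb, mean H3K27ac contact changed by 0.55 (log2) at 16 h, against -0.03 over the 453335 longer loops.

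TSC22D3 has more than 1 start. Its canonical start, chrX:107019017 on the minus strand, belongs to the long isoform, and its window also holds the start of NCBP2L. The start 58.7 kb further along the gene, chrX:106960365, belongs to a short isoform, the one that encodes GILZ. That second start had 24 loops. It was not part of the rule and was added, with a second start of SGK1, after the contacts had been seen.

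At the canonical start of TSC22D3, mean H3K27ac contact per loop was 1.47 before DHT, then 0.980 (30 m), 1.31 (4 h), 0.590 (16 h) and 0.526 (72 h). It fell by 1.32 on the log2 scale at 16 h (interval -2.08 to -0.58, 45 against 25 read pairs) and by 1.48 at 72 h (-2.36 to -0.66, 45 against 18). The intervals of the 16 h and 72 h levels lay below that of 0 m, and those of 0 m, 30 m and 4 h overlapped. Relative to the median of all promoters these changes were -1.43 and -1.63, and 1.15% and 0.423% of promoters had a lower change. Mean H3K4me3 contact at the same loops was 0.470, 0.342, 0.563, 0.601 and 0.763, on 9 to 64 read pairs, and all 5 intervals overlapped.

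At the downstream start, mean H3K27ac contact was 1.84, 2.38, 2.53, 3.44 and 2.68 from 0 m to 72 h. It rose by 0.91 on the log2 scale at 16 h (0.63 to 1.19, 150 against 389 read pairs), or 1.87-fold, which is 0.79 above the median of all promoters. At 16 h the level was the highest of the 5, with an interval of 3.11 to 3.80 that did not overlap those of the other times (72 h, 2.35 to 3.03). The changes at 30 m (0.38), 4 h (0.46) and 72 h (0.54) stayed under 1.5-fold, with intervals that excluded 0. With equal totals the changes were 0.39 at 4 h, 0.66 at 16 h and 0.37 at 72 h. On that scale 16 h stood less far above 4 h and 72 h. Mean H3K4me3 contact was 2.20, 1.76, 2.82, 2.15 and 2.38, and no change in it reached 1.5-fold.

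The 2 starts share 1 loop, which joins them. Over the remaining 8 and 23 loops, the canonical start held 22.5% of the H3K27ac read pairs of both starts at 0 m (43 of 191, exact binomial interval 16.8% to 29.1%). The share was 12.7% at 30 m, 15.2% at 4 h, 5.17% at 16 h (3.23% to 7.80%) and 5.86% at 72 h (3.32% to 9.48%). Because both starts are read from the same table, this ratio does not depend on how tables were scaled. The log2 change of the downstream start exceeded that of the canonical start by 2.41 at 16 h (1.57 to 3.29) and by 2.22 at 72 h (1.28 to 3.22). In H3K4me3 the canonical share was between 3.42% and 6.64%, and the difference of changes was -0.50 at 16 h (-1.96 to 0.85), where only 8 read pairs lay at the canonical start at 0 m.

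Distance moves with this comparison, since the canonical start had no loop under 20 kb. Within loops of 20 kb or more, the difference of H3K27ac changes was 1.71 at 16 h (0.70 to 2.74) and 2.20 at 72 h (1.10 to 3.32). The 21 loops of the downstream start of 20 kb or more, the shared one included, had mean H3K27ac contacts of 0.588 at 0 m and 0.687 at 16 h, a log2 change of 0.23 with an interval that included 0 (-0.35 to 0.82). The 3 loops of the downstream start under 20 kb had mean H3K27ac contacts of 10.6, 14.9, 15.1, 22.7 and 15.5, a log2 change of 1.10 at 16 h (0.78 to 1.43).

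The strongest loop of each start ended at the same intronic anchor. The anchor chrX:106967001-106968000, in an intron of TSC22D3, lies 5 kb upstream of the anchor at the downstream start and 50 kb from that at the canonical start. With the downstream start its H3K27ac contact was 19.1, 25.9, 31.4, 45.0 and 27.1, and with the canonical start it was 3.82, 1.80, 3.63, 1.70 and 1.84. The first rose at 16 h by 1.24 on the log2 scale (0.83 to 1.66), and the median change over 22881 loops of 5 kb was 0.43. The second had 13 and 8 read pairs at these times. Among the 5 strongest loops of the canonical start were those to intergenic anchors 105 kb and 115 kb away, with H3K27ac contacts of 2.64 and 1.76 at 0 m and 0.42 and 0.21 at 16 h, on 9 and 6 read pairs at 0 m. Anchors in an intron of MID2 and at the promoter of MORC4 also had loops with both starts, each on 8 or fewer H3K27ac read pairs at any time.

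**Figure D2:**
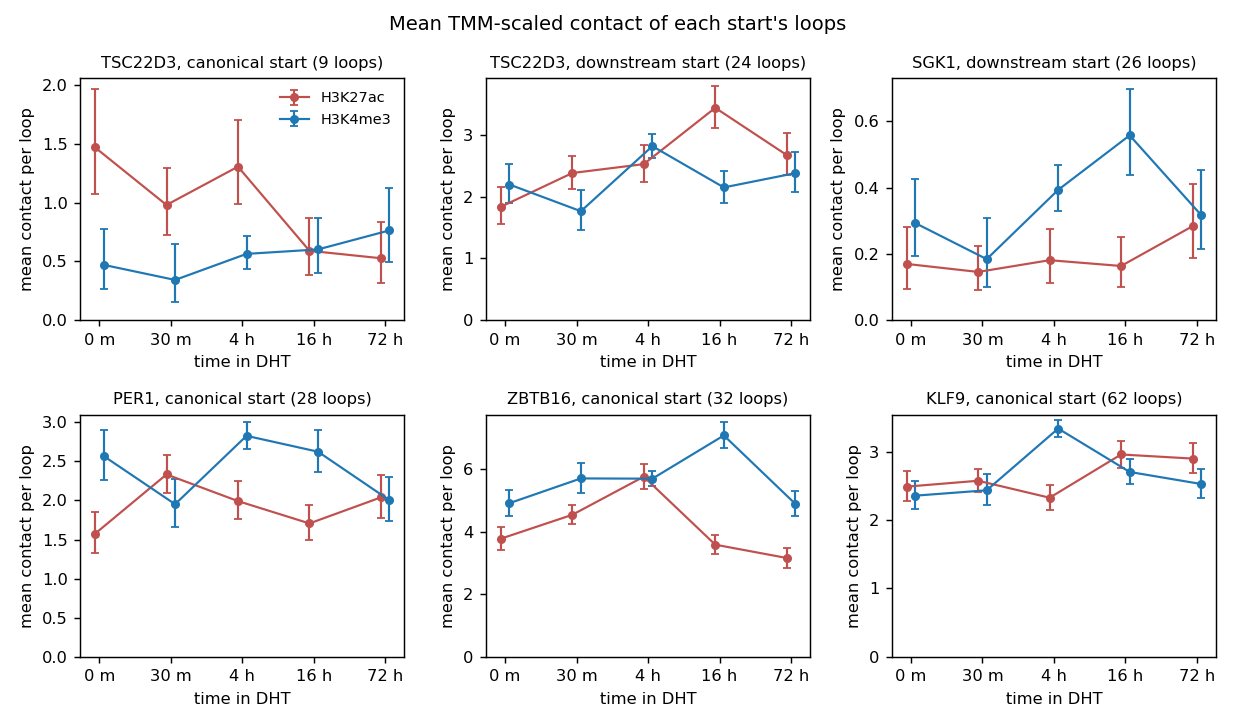
Mean TMM-scaled contact per loop (vertical axis, from 0) by time in DHT for 6 starts, with 95% exact Poisson intervals on read pairs, H3K27ac in red and H3K4me3 in blue. The H3K27ac line of TSC22D3 falls from 1.47 to 0.590 at the canonical start and rises from 1.84 to 3.44 at the downstream start between 0 m and 16 h, and levels of different marks are on separate scales.

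The 200 bases before the downstream start of TSC22D3 (chrX:106960366-106960565, minus strand, intron of the long isoform) are shown because they lie in the 5 kb bin where its strongest H3K27ac loop ends, with CpG dinucleotides in capitals.
TSC22D3 downstream start: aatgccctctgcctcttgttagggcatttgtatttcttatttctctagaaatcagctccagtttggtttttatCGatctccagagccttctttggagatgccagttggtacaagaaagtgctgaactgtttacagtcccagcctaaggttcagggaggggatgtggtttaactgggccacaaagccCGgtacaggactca
This stretch has 2 CpG, against 11 in the 200 bases before the canonical start. In 1 kb around each start the ratio of observed to expected CpG was 0.47 at the downstream and 0.64 at the canonical start, and the median over all canonical starts was 0.73.

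SGK1 could not be measured at its canonical start (chr6:134639250, minus strand), which belongs to a long isoform and had 0 loops, also when whole 5 kb bins were used. The start at chr6:134496004, 143 kb further along the gene, had 26 loops, 22 of them in the H3K4me3 set. Of these, 25 ended upstream of the gene and 1 downstream of it, all in intergenic sequence except 1 upstream partner in an intron of ALDH8A1, with lengths of 30.0 to 765 kb and a median of 452.5 kb. Contacts were near the limit of detection. Mean H3K27ac contact was 0.170, 0.145, 0.181, 0.163 and 0.283 from 0 m to 72 h, on 15 to 28 read pairs in all, and the 5 intervals overlapped. The level at 0 m exceeded that of 5.25% of promoters with a loop.

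Mean H3K4me3 contact at the downstream start of SGK1 was 0.293, 0.184, 0.393, 0.558 and 0.317. It rose by 0.93 on the log2 scale at 16 h (0.28 to 1.62, 27 against 75 read pairs), or 1.90-fold, and 98.4% of promoters had a lower change. The lower end of that interval lay below the 90th percentile of all promoters, 0.47. The change of -0.67 at 30 m (-1.72 to 0.31) rested on 27 and 14 read pairs. In H3K27ac the change at 16 h was -0.05 (-1.09 to 1.02), so a difference between the marks was not detectable at this depth (-0.98, interval -2.24 to 0.30). The strongest loop, 465 kb upstream to chr6:134962001-134963000, had 0, 0, 3, 3 and 4 H3K27ac read pairs and 1, 0, 13, 6 and 3 H3K4me3 read pairs. The next, 645 kb upstream, had 1, 3, 1, 0 and 1, and 3, 0, 10, 5 and 2. A floor of 3 read pairs corresponds to a contact of 0.540 to 0.882 in H3K27ac, above the mean contact of the SGK1 loops at every time.

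PER1 (chr17:8055722, minus strand) had 28 loops, of which 20 were called in H3K27ac and 22 in H3K4me3. Its partners were mostly other promoters, 15 of 28 loops, and 0 partners lay in PER1 itself. Mean H3K27ac contact was 1.57, 2.33, 1.99, 1.71 and 2.04. The change at 30 m was 0.57 (0.29 to 0.85), or 1.48-fold, just under the call, and 0.32 above the median of all promoters. Of all promoters, 80.0% had a lower change. The 30 m level was the highest of the 5. Its interval, 2.10 to 2.59, lay above those of 0 m and 16 h but overlapped those of 4 h and 72 h. At 16 h the change was 0.12 (-0.19 to 0.42), equal to the median of all promoters, and it turned to -0.13 with equal totals.

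In H3K4me3 the mean contact of PER1 was 2.57, 1.95, 2.83, 2.62 and 2.003. The change was -0.40 at 30 m (-0.69 to -0.11) and -0.36 at 72 h (-0.63 to -0.09), and both were under 1.5-fold. The 30 m and 72 h levels were the lowest, and their intervals overlapped each other and that of 0 m. The changes at 4 h (0.14) and 16 h (0.03) were -0.09 and -0.10 with equal totals.

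The 5 strongest loops of PER1 included the promoters of HES7, a transcriptional repressor of the segmentation clock, 30 kb downstream, and of BORCS6, a subunit of a complex that positions lysosomes, 35 kb upstream. H3K27ac contact with HES7 was 3.53, 7.74, 7.26, 4.25 and 6.05, a 2.19-fold change at 30 m (log2 interval 0.18 to 2.19, 12 against 43 read pairs). With BORCS6 it was 4.11, 9.18, 5.56, 7.01 and 7.63, 2.23-fold at 30 m (0.28 to 2.13, 14 against 51). Both were at their lowest at 0 m. The strongest loop, 15 kb to an intergenic anchor at chr17:8042001-8043000, was 8.82, 13.3, 12.8, 8.70 and 10.8, with intervals that included no change. At 30 m the loop of 70 kb upstream changed by -0.09 on the log2 scale (-1.03 to 0.88). That of 95 kb downstream changed by 0.68 (-0.55 to 2.07). Over all loops with 20 or more read pairs, the 30 m change had medians of 0.22 at 30 kb and 0.20 at 35 kb. In H3K4me3, contact with HES7 was 14.9, 12.6, 12.8, 13.7 and 9.89, and with BORCS6 8.18, 8.20, 9.43, 8.31 and 5.77.

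ZBTB16 (chr11:113930433, plus strand) had 32 loops, 11 of which ended inside its own 198 kb gene. Mean H3K27ac contact was 3.77, 4.54, 5.76, 3.58 and 3.16. It rose by 0.61 on the log2 scale at 4 h (0.44 to 0.78, 411 against 862 read pairs), or 1.53-fold, and 94.8% of promoters had a lower change. Equal totals gave 0.54, which is under 1.5-fold. The call was also lost with the H3K4me3 set alone, with mean log2(contact + 0.5) or without the strongest loop. The order of levels was 4 h, 30 m, 0 m, 16 h and 72 h. The intervals of 4 h (5.38 to 6.15), 30 m (4.23 to 4.86) and 0 m (3.42 to 4.16) did not overlap, and those of 0 m, 16 h and 72 h overlapped one another. The change at 72 h was -0.26 (-0.46 to -0.05).

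Mean H3K4me3 contact of ZBTB16 was 4.91, 5.70, 5.69, 7.07 and 4.89, so that the highest level was at 16 h rather than at 4 h. The change at 16 h was 0.53 (0.38 to 0.68), or 1.44-fold, with an interval of the level (6.67 to 7.49) above those of all other times. The interval of 30 m (5.23 to 6.20) overlapped those of 0 m, 4 h and 72 h, whereas that of 4 h (5.46 to 5.93) lay above those of 0 m and 72 h. The change at 4 h was 0.21, and -0.01 with equal totals, which gave 0.19 at 30 m and 0.39 at 16 h.

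The strongest ZBTB16 loops ran to the neighbouring bin, 5 kb upstream, and to 2 intronic anchors 100 kb and 120 kb into the gene, chr11:114032001-114033000 and chr11:114052001-114053000. H3K27ac contact of the 100 kb loop was 16.5, 24.3, 27.8, 20.6 and 15.3, 1.69-fold at 4 h (log2 0.76, 0.29 to 1.23). That of the 120 kb loop was 12.9, 17.5, 20.7, 19.7 and 16.3, 1.603-fold at 4 h (0.68, 0.15 to 1.23). The median change at 4 h over all loops with 20 or more read pairs in both tables together was -0.04 at 100 kb and -0.08 at 120 kb. The 100 kb and 120 kb loops had their highest values at 4 h. These differed by less than the counting error from the 30 m values of both loops (130 against 135 and 97 against 97 read pairs) and from the 16 h value of the 120 kb loop (93). The loop of 25 kb to an intergenic anchor upstream was 5.88, 10.4, 14.3, 7.86 and 4.74, 2.44-fold at 4 h (1.28, 0.55 to 2.08).

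Loops of ZBTB16 did not all move alike after 4 h. The 5 kb loop was 15.9, 16.7, 25.4, 11.04 and 8.42 in H3K27ac, and at 72 h it fell by 0.91 on the log2 scale (-1.59 to -0.26), while the median change of all loops of 5 kb was 0.34. The 120 kb loop stayed 0.61 above 0 m at 16 h (0.08 to 1.16). Over all loops of 120 kb the median change at 16 h was 0.25, with quartiles of -0.25 and 0.85. In H3K4me3 the 15 kb loop into the first part of the gene went from 9.87 at 0 m to 18.8 at 16 h, 1.90-fold (0.93, 0.35 to 1.53), and the 5 kb loop from 21.2 to 30.9, 1.46-fold (0.55, 0.14 to 0.96). The median H3K4me3 changes at 16 h over all loops of 15 kb and 5 kb were -0.004 and 0.26.

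**Figure D3:**
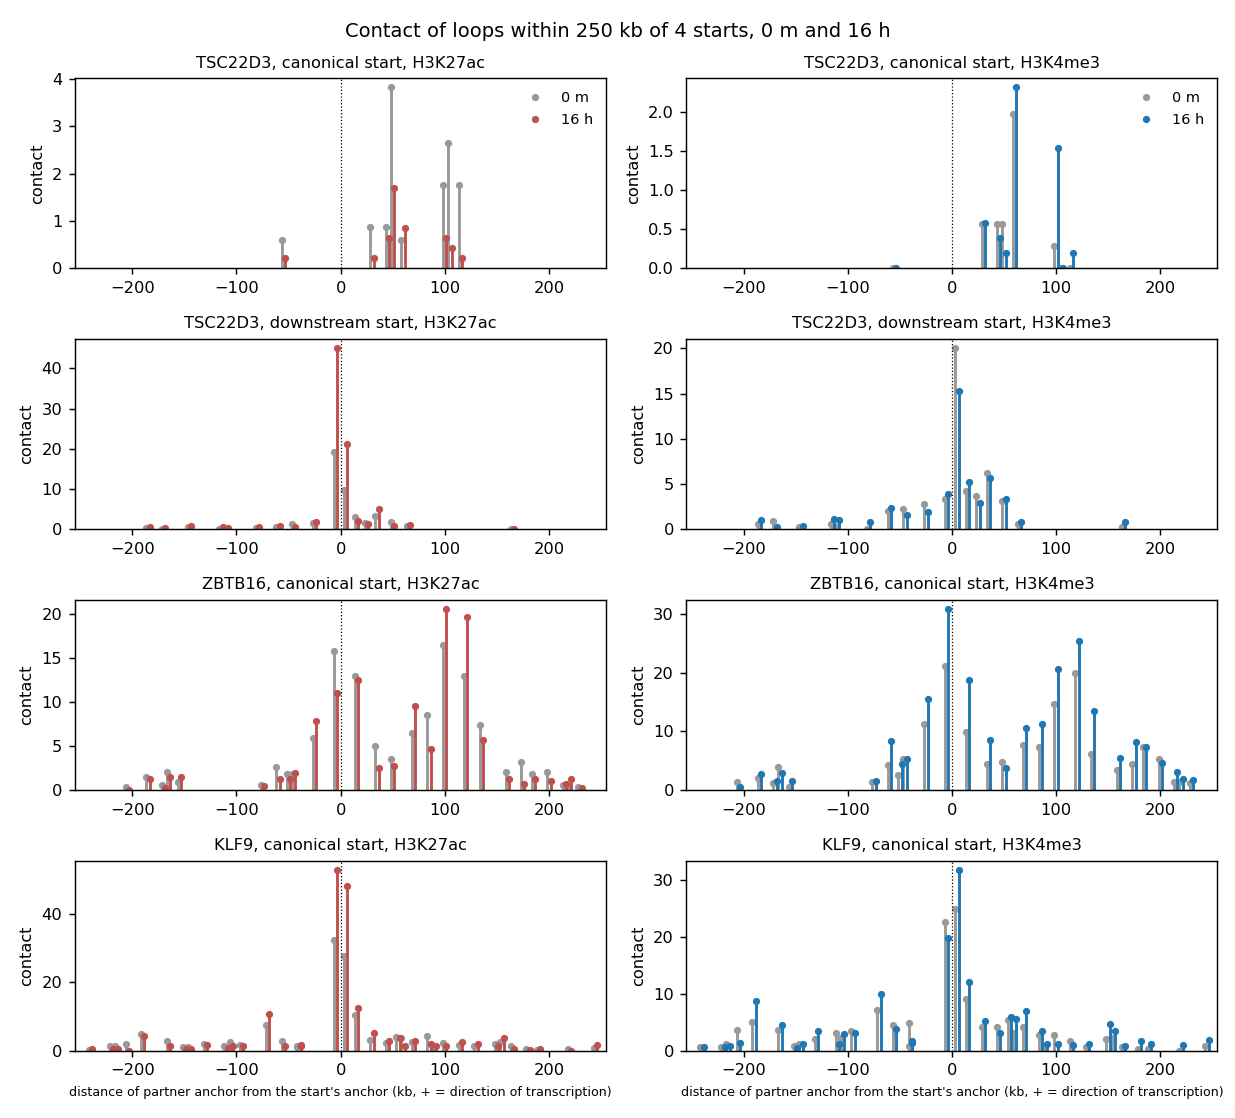
Contact (vertical axis) of each loop within 250 kb, by the distance in kb of its partner anchor from the anchor at the start (horizontal axis, positive in the direction of transcription), at 0 m in grey and 16 h in colour, for both TSC22D3 starts, ZBTB16 and KLF9. Partners of ZBTB16 stand out at 100 and 120 kb, inside the gene, whereas the H3K27ac contacts of KLF9 and of the downstream start of TSC22D3 are highest at 5 kb on either side.

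KLF9 (chr9:73029573, minus strand) had 62 loops, more than 91.6% of promoters with a loop, of which 33 ended in introns and 18 in intergenic sequence. Mean H3K27ac contact was 2.49, 2.57, 2.33, 2.96 and 2.90. The changes at 16 h (0.25, 0.09 to 0.41) and 72 h (0.22, 0.05 to 0.39) were 0.13 and 0.07 above the median of all promoters, and with equal totals they were 0.00 and 0.05. The levels of 16 h and 72 h overlapped, as did those of 4 h, 0 m and 30 m, and that of 72 h also overlapped 0 m and 30 m. Mean H3K4me3 contact was 2.36, 2.44, 3.34, 2.70 and 2.53. The highest level, at 4 h, had a change of 0.50 (0.37 to 0.64), or 1.42-fold, 0.28 above the median of all promoters. Its interval (3.21 to 3.47) lay above those of the other times. With equal totals the change was 0.28 at 4 h and 0.23 at 72 h, so those levels then lay close together.

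Short and long loops of KLF9 differed. The 3 loops under 20 kb had mean H3K27ac contacts of 23.5, 29.1, 25.1, 37.9 and 33.9, a change of 0.69 at 16 h (0.47 to 0.91) and of 0.53 at 72 h (0.29 to 0.77). The 59 longer loops had 1.42, 1.23, 1.17, 1.18 and 1.32, a change of -0.26 at 16 h (-0.50 to -0.03). Over the whole series short loops changed by 0.55 at 16 h and 0.41 at 72 h. The part of this general shift in the KLF9 values was not tested.

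The 2 strongest loops of KLF9 joined the anchor at its start to the next bin on either side. H3K27ac contact was 32.3, 40.3, 34.4, 52.9 and 48.4 on the upstream side, where the partner also lies in the promoter window, and 27.6, 33.8, 32.3, 48.2 and 42.6 on the downstream side, in the KLF9 intron. At 16 h these were 1.64-fold (log2 0.71, 0.38 to 1.05) and 1.74-fold (0.80, 0.45 to 1.17), against a median of 0.43 over all loops of 5 kb. In H3K4me3 the same loops were highest at 4 h, at 41.1 and 39.5 from 22.6 and 24.8 at 0 m. The intergenic partner 70 kb upstream, whose bin holds the element shown above, had H3K27ac contacts of 7.64, 8.64, 7.91, 10.6 and 8.68 and H3K4me3 contacts of 7.05, 9.22, 14.1, 9.86 and 7.42. The interval of the latter's log2 change at 4 h was 0.39 to 1.67. A partner 190 kb upstream lay in an intron of TRPM3, a cation channel gene, with H3K27ac contacts of 4.995, 4.14, 6.20, 4.25 and 4.21, which differed by less than the counting error.

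**Figure D4:**
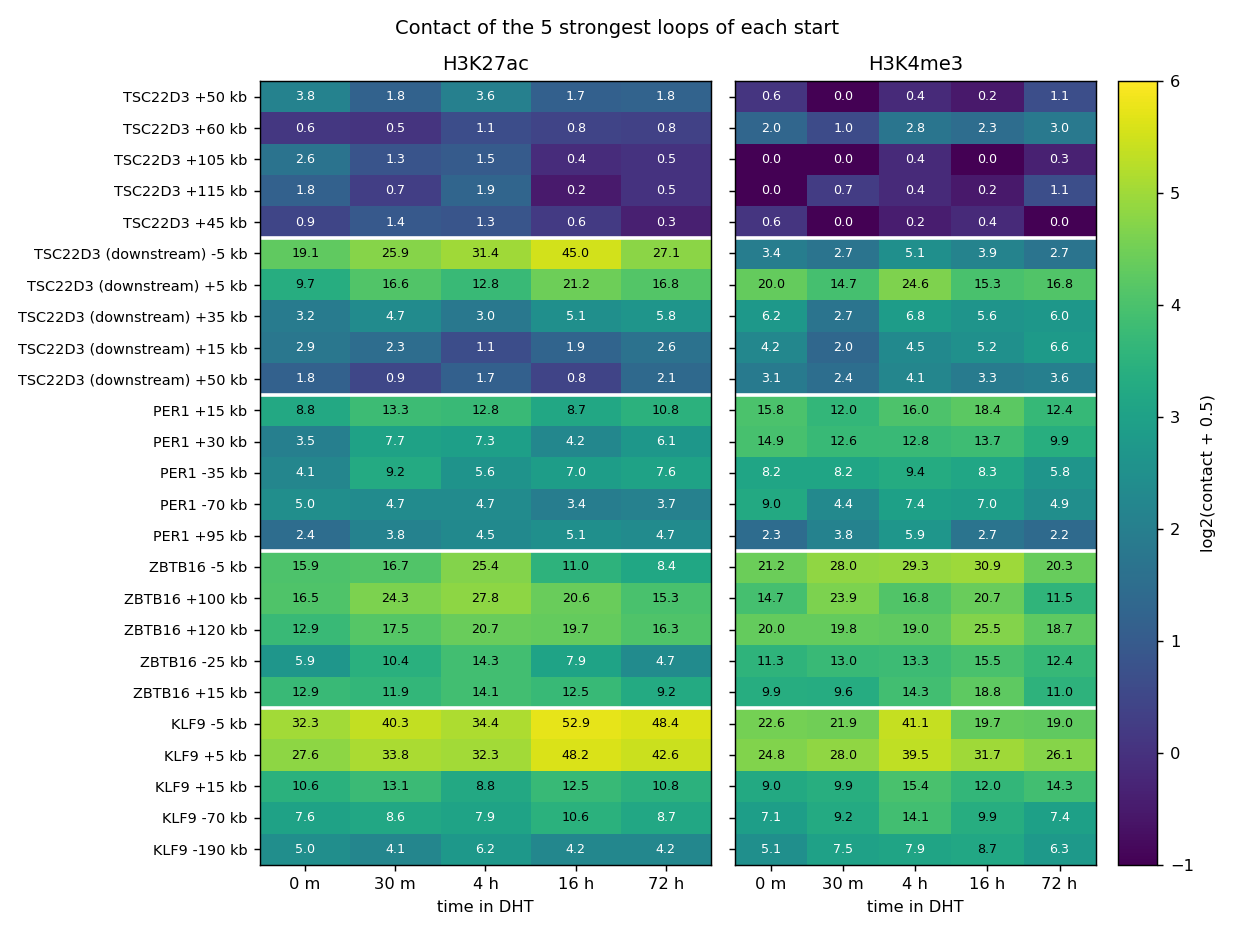
Contact of the 5 strongest loops of each start (rows, with the distance of the partner in kb, positive in the direction of transcription) by time in DHT, H3K27ac left and H3K4me3 right. Numbers are contacts and colours log2(contact + 0.5). The H3K27ac contacts of ZBTB16 at 100 and 120 kb are highest at 4 h (27.8 and 20.7), and those of KLF9 and of the downstream TSC22D3 start at 5 kb are highest at 16 h (52.9, 48.2 and 45.0).

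The marks moved apart at several times. The log2 change in H3K27ac exceeded that in H3K4me3 by 0.96 at PER1 at 30 m (0.55 to 1.37), by 0.73 at PER1 at 72 h (0.32 to 1.15) and by 0.40 at ZBTB16 at 4 h (0.18 to 0.62). It was lower by 0.60 at ZBTB16 at 16 h (interval of the difference -0.84 to -0.36) and at KLF9 at 4 h (-0.82 to -0.38). With equal totals the differences were 0.89 and 0.43 (0.02 to 0.85) at PER1, 0.55 and -0.71 at ZBTB16 and -0.44 (-0.66 to -0.23) at KLF9, so those of PER1 at 72 h and of KLF9 were then under 1.5-fold. These intervals cover counting error in 4 tables and no replicate error. When every annotated start of ZBTB16 was used, its H3K27ac change at 16 h was positive, and the difference between the marks was not computed for that setting.

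Promoters with the most similar course over the 8 log2 changes, among those with 100 or more read pairs at 0 m in each mark and no shared loop, were found for the 4 genes with loops. For PER1 these included FBRS and COQ8B, with root mean square differences of 0.072 and 0.098 against a median of 0.35 over 5863 promoters. For KLF9 they were TASOR2, EDRF1 and METTL21A (0.068 to 0.076, median 0.31). ZBTB16 was nearest to PAK1IP1 and C6orf52, whose values were identical, and to ORC5, at 0.15 each (median 0.43). The nearest to TSC22D3 at its canonical start were THRB, MYNN and MANEA at 0.40 to 0.41 (median 0.97). That start itself had only 45 H3K27ac and 15 H3K4me3 read pairs at 0 m, so its counting error enters these differences.

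Other genes induced by glucocorticoids were taken from a list of 24, of which 22 had 20 or more read pairs in H3K27ac at 0 m and 16 h together. At 16 h, 7 of the 22 were higher by 1.5-fold (17.7% of all promoters) and 1 was lower (10.8%), with a median change of 0.48 against 0.12 over all promoters. With equal totals 5 were higher (7.75% of all promoters) and 2 lower (20.7%). BIRC3, an inhibitor of apoptosis, went from 1.94 to 4.48 (log2 1.21, 0.80 to 1.63) and CEBPB, a transcription factor of acute responses, from 0.816 to 1.61 (0.98, 0.70 to 1.28). CDKN1C, an inhibitor of the cell cycle, went from 0.617 to 0.170 (-1.86, -3.25 to -0.63), on 21 and 8 read pairs, and KLF15 from 0.766 to 0.584 (-0.39, -0.87 to 0.09). In H3K4me3 at 4 h, 11 of 22 were higher (15.8% of all promoters) and 0 lower (3.88%), with a median of 0.57 against 0.22. With equal totals 2 were higher (7.14% of all promoters) and 1 lower (8.46%). At 4 h in H3K27ac 1 was higher (5.85%) and 0 lower (2.13%), with a median of -0.01 against 0.05, and with equal totals 0 were higher.

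Of the 14 steroid receptors and their chaperones, 12 were measured in H3K27ac at 16 h, 4 higher (17.7% of all promoters) and 0 lower (10.8%), with a median of 0.35 against 0.12. With equal totals 1 was higher (7.75%) and 2 were lower (20.7%). The receptor genes NR3C1 (glucocorticoid receptor) and PGR had 1 and 2 loops and too few read pairs. HSPA8 went from 1.34 to 3.00 (1.16, 0.97 to 1.35) and HSP90AB1 from 1.57 to 2.69 (0.77, 0.57 to 0.98), both chaperones that keep receptors able to bind steroid. FKBP4, a co-chaperone, changed by -0.49 (-0.99 to 0.01) and NR3C2, the mineralocorticoid receptor, by -0.41 (-0.82 to -0.01).

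Among 19 circadian clock genes besides PER1, 1 was higher (17.7% of all promoters) and 1 lower (10.8%) in H3K27ac at 16 h, with a median of 0.29 against 0.12. NPAS2, a partner of BMAL1, went from 0.357 to 0.971 (1.44, 0.65 to 2.31) and DBP, a clock output gene with only 2 loops, from 9.55 to 3.40 (-1.49, -2.15 to -0.86). BHLHE40 and CIART, both clock repressors, had changes of 0.51 (0.29 to 0.72) and -0.30 (-0.58 to -0.03).

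Among 11 paralogs of the 5 genes, 9 were measured in H3K27ac at 16 h, 2 higher (17.7% of all promoters) and 0 lower (10.8%), with a median of 0.15 against 0.12, which is near the background, and with equal totals 0 were higher (7.75% of all promoters) and 1 lower (20.7%). KLF10 went from 0.871 to 1.497 (0.78, 0.52 to 1.05), KLF13, on 9 and 20 read pairs, had 0.68 (-0.52 to 2.002), TSC22D1 had -0.47 (-1.05 to 0.11) and ZBTB32 had -0.29 (-0.85 to 0.27). Of 11 genes of SGK1 signalling, 2 were higher and 1 lower at 16 h, with a median of 0.09, close to the same background, and with equal totals 1 was higher (7.75%) and 1 lower (20.7%). PDPK1, the kinase that activates SGK1, went from 15.9 to 28.3 on 2 loops (0.84, 0.51 to 1.17) and NDRG1, an SGK1 substrate, from 1.09 to 1.74 (0.67, 0.23 to 1.13). MAPKAP1 and MTOR, of the complex that phosphorylates SGK1, had -0.95 (-1.70 to -0.21) and -0.26 (-0.68 to 0.15).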

How the data were processed

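HiChIP libraries of LNCaP cells were mapped by title to 2 marks and 5 time points. Per the submitters' processing notes and the study's methods, the authors trimmed reads with Trim Galore 0.5.0, aligned them to hg19 with HiC-Pro 3.1.0, called loops with FitHiChIP in 5 kb bins on all time points of a mark merged, and deposited each loop's contact signal, scaled by TMM. Whether both H3K27ac replicates entered a value is not given in the sources used here. All 10 tables list the same 574817 anchor pairs, and repeated pairs were used once. Read pairs were recovered by dividing by the step of each table (100% whole within 0.01).

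A promoter is the 2500 bp on either side of a Gencode 44 start on GRCh37. Mean contact over its loops was compared with 0 m as a log2 change, with exact Clopper-Pearson intervals on read pairs, and called at 1.5-fold with at least 20 read pairs. Python 3.11.15 and scipy 1.17.1 were used, and the scripts were tested on simulated data. The members, lists and named genes were chosen with earlier results of these data known. The named loops are the 5 of highest mean contact in either mark, the named list genes the 2 largest and 2 smallest H3K27ac changes at 16 h, and the most similar promoters those of smallest root mean square difference. Some genes these rules name are not reported here. Alternatives changed the scaling, the starts, the overlap, the loops used, the averaging and both thresholds.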

Additional observations from a re-analysis of the deposited data

Results flagged for a closer look

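Changes from 0 m that differed between the 2 marks by 1.5-fold or more, with a 95% counting interval of the difference that excluded 0, are given here as the H3K27ac minus the H3K4me3 log2 change. At the canonical start of TSC22D3 the difference was -1.67 at 16 h (-2.94 to -0.42) and -2.18 at 72 h (-3.52 to -0.85), on 15 to 28 H3K4me3 read pairs. At its downstream start it was 0.69 at 30 m (0.25 to 1.14) and 0.94 at 16 h (0.54 to 1.33). At PER1 it was 0.96 at 30 m and 0.73 at 72 h, at ZBTB16 it was -0.60 at 16 h, and at KLF9 it was -0.60 at 4 h. With equal totals PER1 at 72 h (0.43) and KLF9 at 4 h (-0.44) were under 1.5-fold, and the other 6 differences stayed over it. Replicate error was not available for any of them.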

How the results depend on the processing

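No replicate could be left out, since 1 value per mark and time point was deposited. No paired analysis was possible because the tables hold no replicates. Over 192 alternatives for the 16 counts of members called, 161 gave the same count as the rule of the report. ZBTB16, the 1 member higher in H3K27ac at 4 h, was no longer called (0 members) with equal totals, the H3K4me3 set alone, mean log2(contact + 0.5), a 2-fold threshold or without the strongest loop. TSC22D3, the 1 member lower in H3K27ac at 16 h and 72 h, gave 0 with every annotated start or with the downstream start. Its change then reversed, to 0.52 at 16 h and 0.22 at 72 h with every start and to 0.91 and 0.54 with the downstream start, where 1 member was higher at 16 h and 1, SGK1, at 72 h. TSC22D3 in H3K4me3 at 72 h gave 0 with loops of mean contact of at least 1, whole 5 kb bins, every start, either loop set, mean log2, the downstream start, 2-fold or 50 read pairs. In H3K27ac at 30 m, 1 member was higher with loops of mean contact of at least 1 or of the H3K4me3 set, and 1 was lower with equal totals or with mean contact of at least 1. In H3K4me3, 1 was lower at 30 m with 5 kb bins, every start, the H3K4me3 set or the downstream start, and 1 was higher at 16 h with every start or the downstream start. Of 296 alternative log2 changes, 272 lay within the counting interval of the reported value and 4 reversed. With every annotated start ZBTB16 had 104 loops and TSC22D3 had 53, and the H3K27ac change of ZBTB16 at 16 h was 0.38. With equal totals the 22 other glucocorticoid targets had 2 genes higher in H3K4me3 at 4 h in place of 11, and the receptors and chaperones had 1 higher in H3K27ac at 16 h in place of 4. The downstream starts and this scaling of the lists and of the differences between marks were added after the data were seen. Contacts of single loops under 20 read pairs and of SGK1 are limited by depth.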
